A study of Homo sapiens with 24 samples.

Results

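Nuclear isoleucine tRNAs were followed in HEK293T cells, a human embryonic kidney line, after knockout of the dihydrouridine synthase genes DUS1L, DUS2L or DUS3L. They were taken by name alone, as the families Ile-AAT, Ile-GAT and Ile-TAT, 3 of the 74 entries of the deposited anticodon tables, and as the 14 isoleucine isodecoders among the 286 entries of the isodecoder tables. Isodecoders are tRNAs that share an anticodon and differ elsewhere in sequence, and 10 of the 14 carried AAT, 1 GAT and 3 TAT. The mitochondrial isoleucine tRNA was left out. The labels list 24 libraries of gel-isolated tRNA from untreated cells with added E. coli tRNA, 3 from each of 2 wild-type sets and 3 from each of 2 clones per knockout, named 1-9 and 2-4 for DUS1L, 1-8 and 2-1 for DUS2L and 1-5 and 2-8 for DUS3L. The deposited tables call the clones #1 and #2 without saying which is which. They hold tRNA alone, so loss of the DUS genes could not be checked.

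Isoleucine tRNAs read the codons AUU, AUC and AUA. In human cells most of the work falls to Ile-AAT, whose first anticodon base is deaminated to inosine and so can pair with several codon endings. Ile-TAT is specialised for AUA, and its genes carry an intron that is spliced out of the precursor. Ile-GAT is a minor nuclear species. Dihydrouridine is a flexible, non-aromatic form of uridine. DUS1L and DUS2L make it in the D loop of tRNA and DUS3L in the variable loop.

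All 14 isodecoders matched a gene of RefSeq (GRCh38.p14), 9 of them on chromosome 6 and 1, tRNA-Ile-AAT-12-1, annotated as a pseudogene (chromosome 20, 52601799 to 52601876, in an intron of LINC01524). Some entries stand for several copies, as RefSeq lists 5 genes of isodecoder AAT-5, 2 of AAT-7, 3 of GAT-1 and 3 of TAT-2. tRNA-Ile-AAT-3-1 and tRNA-Ile-AAT-9-1 are neighbours, with 1177 bases between their genes, and tRNA-Ile-AAT-4-1 lies in an untranslated region of CTC1 (chromosome 17, 8226991 to 8227064). Gene sequences were read from the RefSeq promoter windows of other genes that overlap them, which covered 2 genes whole and the end of another. They are shown because they cover the variable loop and, in the whole genes only, the D loop. Another reason was that tRNA-Ile-AAT-1-1 passed in both DUS2L clones and tRNA-Ile-AAT-8-1 in neither, a difference between them that was not tested. Capitals mark the thymines at D-loop positions 16, 17, 20 and 20a and at variable-loop position 47 in the standard tRNA numbering. All are on the plus strand of GRCh38.p14, at chr6:27668583-27668656 for tRNA-Ile-AAT-8-1, chr6:27020346-27020439 for the second copy of tRNA-Ile-TAT-2 (in an intron of LINC00240) and chr6:57800236-57800284 for the last 49 of the 74 bases of tRNA-Ile-AAT-1-1.
tRNA-Ile-AAT-8-1: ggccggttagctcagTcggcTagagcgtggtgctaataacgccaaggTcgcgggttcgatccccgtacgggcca
tRNA-Ile-TAT-2-2: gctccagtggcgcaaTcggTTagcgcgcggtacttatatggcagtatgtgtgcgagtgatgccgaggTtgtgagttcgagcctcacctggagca
tRNA-Ile-AAT-1-1, 3′ part: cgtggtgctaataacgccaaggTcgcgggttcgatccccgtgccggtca
Both whole genes had a thymine at positions 16, 20a and 47 and a cytosine at 17. Position 20 was a thymine in tRNA-Ile-TAT-2-2 and a cytosine in tRNA-Ile-AAT-8-1. Which of the marked bases each enzyme acts on was not examined. The TAT gene holds an intron of 20 bases, without which it is 74 bases long. Over the 49 bases compared, tRNA-Ile-AAT-1-1 differed from tRNA-Ile-AAT-8-1 by A67G, G69C and C72T, counted from the 5′ end of the AAT-8-1 gene, all in the acceptor stem. Isodecoders this alike share most of their reads' sequence, and how the authors placed reads that match several genes is not given in the sources used here, so levels of single isodecoders are less certain than those of families.

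The tables hold no values per library. A level below is the normalised count of a group, solved from the authors' mean and both fold changes, and is given in the order wild type, clone #1, clone #2. A change is the authors' log2 fold change against the wild type of the same table ± the standard error (SE) recovered from their p-value. A tRNA passed at a Benjamini-Hochberg adjusted p under 0.05, adjusted over all entries of the table. Whether the 3 libraries of a group came from separate cultures is not labelled, so the p-values measure a spread that may be technical. In pools from many cells, fewer cells holding a tRNA and less of it per cell cannot be told apart. The authors' means summed to 1278868, 2649825 and 817514 normalised counts per library in the DUS1L, DUS2L and DUS3L anticodon tables, and isoleucine tRNAs made up 0.235% to 1.32% of the nuclear counts of a group.

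The wild types behind the tables differed in their isoleucine tRNAs. The wild-type level of each of the 14 isodecoders was higher in the DUS2L than in the DUS1L table by 1.13 to 1.26 on the log2 scale, a near-constant ratio, as the same libraries on another scale would give. Which wild-type set each table used is not labelled. Against the DUS3L table the same log2 ratio to the DUS1L table ran from -4.68 for tRNA-Ile-AAT-5-3 to 4.81 for tRNA-Ile-AAT-7-1. Ile-AAT held 68.1% of wild-type isoleucine counts in the DUS1L table, 67.9% in the DUS2L table and 77.1% in the DUS3L table, and Ile-GAT 0.540%, 0.534% and 1.86%. The leading AAT isodecoder was tRNA-Ile-AAT-4-1 in the wild types of the DUS1L and DUS2L tables, with 57.7% and 57.2% of AAT counts. In the wild type of the DUS3L table it was tRNA-Ile-AAT-3-1 with 58.9%, where tRNA-Ile-AAT-4-1 held 5.34%. The pseudogene-annotated tRNA-Ile-AAT-12-1 held 13.5%, 13.7% and 5.52% of AAT counts in the wild type of the DUS1L, DUS2L and DUS3L tables. Without values per library, these differences between wild types carry no test, and the levels were also scaled separately in each table.

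**Figure D1:**
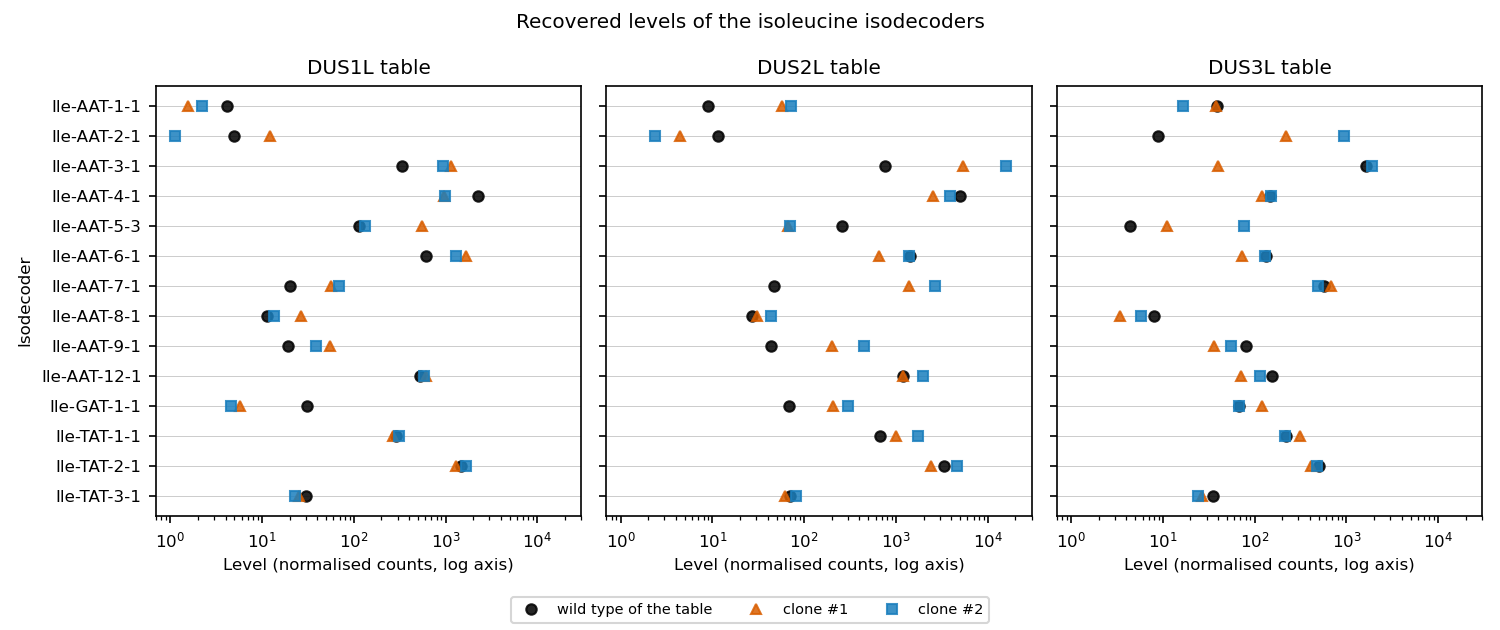
Recovered levels of the 14 isoleucine isodecoders in normalised counts on a log axis, one panel per table, with wild type as circles, clone #1 as triangles and clone #2 as squares. In the DUS2L panel tRNA-Ile-AAT-7-1 runs from 47.1 in wild type to 1398 and 2637 in the clones, and in the DUS3L panel tRNA-Ile-AAT-3-1 of clone #1 stands at 39.8 against 1631 in wild type.

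In the DUS1L knockouts no isoleucine family passed in either clone, and of the isodecoders tRNA-Ile-AAT-5-3 and tRNA-Ile-AAT-6-1 passed, both in clone #1. Of the 3 families none had an unadjusted p under 0.05 by the authors' DESeq2 test in clone #1 or clone #2, where 5.71% and 0% of all anticodon entries passed. The levels of Ile-AAT were 3883, 5076 and 4059, a change of 0.39 ± 0.57 in clone #1 and 0.06 ± 0.57 in clone #2 in the authors' deposited table. For Ile-TAT they were 1790, 1604 and 1982, so the groups lay close together, with changes of -0.16 ± 0.56 and 0.15 ± 0.56 in the authors' deposited table. Ile-GAT was rare, at 30.8, 5.74 and 4.53, and its changes of -2.42 ± 1.49 and -2.76 ± 1.47 in the authors' deposited table did not pass (adjusted p = 0.396 and 0.385).

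Of the 13 isoleucine isodecoders with a p-value, 2 rose in DUS1L clone #1 (15.6% of all entries passed higher) and 0 fell (5.09% lower), with 0 lower at an unadjusted p under 0.05 by DESeq2. The share that rose was thus near that of all entries. In clone #2, 0 passed in either direction (2.55% higher and 5.82% lower), with 3 higher and 1 lower at an unadjusted p under 0.05 by DESeq2. The median change over all 14 was 0.72 and 0.15, against 0.28 and -0.16 over all entries. No isoleucine isodecoder passed in both clones, where 1.45% of all entries were higher and 2.91% lower in both. tRNA-Ile-AAT-5-3, with levels of 113, 546 and 134, rose in clone #1 by 2.27 ± 0.51 in the authors' deposited table (adjusted p = 0.000253). In clone #2 it stood at 0.24 ± 0.52 in the authors' deposited table, near wild type. tRNA-Ile-AAT-6-1 was higher than wild type in both clones, at 613, 1670 and 1315, and the authors' deposited table gave 1.45 ± 0.41 (adjusted p = 0.00361) and 1.10 ± 0.41, which missed the threshold (adjusted p = 0.0696). Centred on the median nuclear isodecoder, which lay at 0.20 in clone #1 and -0.19 in clone #2, tRNA-Ile-AAT-6-1 passed in both clones. tRNA-Ile-AAT-7-1 then passed in clone #2 but not in clone #1.

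The shares of AAT isodecoders within the Ile-AAT counts of the DUS1L table carry no test and are given as a description. tRNA-Ile-AAT-4-1 went from 57.7% of AAT counts in wild type to 19% and 24.0%, tRNA-Ile-AAT-6-1 from 15.8% to 32.9% and 32.4%, and tRNA-Ile-AAT-3-1 from 8.57% to 22.3% and 23.1%. The authors' deposited table gives tRNA-Ile-AAT-4-1 (levels 2240, 962 and 973) a change of -1.22 and -1.20 without a p-value, so it could not be called. The reason for the missing p-value is not given. Without values per library, it could not be checked whether an extreme library sets its levels. The shares of all AAT isodecoders in this table carry the same doubt. tRNA-Ile-AAT-3-1, at 333, 1133 and 939, did not pass, with changes of 1.77 ± 0.72 and 1.50 ± 0.72 in the authors' deposited table (adjusted p = 0.0666 and 0.188). Within the TAT pool tRNA-Ile-TAT-2-1 held 82.1%, 81.9% and 83.3%, and tRNA-Ile-TAT-1-1 16.2%, 16.6% and 15.6%.

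The other isodecoders of the DUS1L table did not pass in either clone. tRNA-Ile-AAT-7-1 was at 20.2, 56.1 and 69.4, tRNA-Ile-AAT-9-1 at 19.3, 55.7 and 39.1, and both clones lay above wild type for each. The more abundant tRNA-Ile-AAT-12-1 lay close to wild type, at 525, 610 and 575. tRNA-Ile-AAT-8-1 stood at 11.4, 26.4 and 13.5, tRNA-Ile-AAT-1-1 at 4.12, 1.56 and 2.24, and tRNA-Ile-TAT-3-1 at 30.5, 25.3 and 22.7.

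In the DUS2L knockouts 4 AAT isodecoders rose in both clones, and the families Ile-AAT and Ile-GAT rose in clone #2. Isoleucine tRNAs summed to 12915, 15194 and 33063 normalised counts, which was 0.506% of nuclear counts in wild type and 0.951% and 1.32% in the clones. The nuclear counts themselves were 2.55e+06, 1.60e+06 and 2.51e+06, so in clone #1 the share was higher mostly because the nuclear total was lower. No family passed in clone #1 (1 with an unadjusted p under 0.05 by DESeq2, Ile-GAT), where 35.2% of all anticodon entries passed, and 2 of 3 rose in clone #2, where 42.3% passed. Ile-AAT, at 8768, 11529 and 26393, changed by 0.39 ± 0.55 and 1.59 ± 0.55 in the authors' deposited table (adjusted p = 0.579 and 0.0157). Ile-GAT, at 69.0, 208 and 301, changed by 1.59 ± 0.76 and 2.12 ± 0.76 in the authors' deposited table (adjusted p = 0.0801 and 0.0187). Ile-TAT, at 4078, 3457 and 6369, lay on either side of wild type and did not pass, with -0.24 ± 0.55 and 0.64 ± 0.55 in the authors' deposited table. Most nuclear families lay below wild type in this table, the median at -1.10 in clone #1 and -0.45 in clone #2. Centred on it, Ile-AAT and Ile-GAT passed in clone #1 as well, at 1.49 and 2.69.

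Of the 14 isodecoders, 4 rose in DUS2L clone #1 (16.7% of all entries) and 2 fell (37.3%), and 6 rose in clone #2 (21.4%) and 1 fell (30.8%). In both clones 4 were higher (16.7% of all entries) and 1 was lower (26.8%). Centred on the median nuclear isodecoder, each clone had 7 that rose and 0 that fell. Scaled to the E. coli spike-ins, clone #1 had 5 that rose and 1 that fell, and clone #2 had 7 and 0. The median change of the 14 was 0.08 and 0.69, against -0.94 and -0.56 over all entries.

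The 4 isodecoders higher in both DUS2L clones all carried AAT, as do 10 of the 14 isodecoders. After centring on the median, tRNA-Ile-AAT-12-1, tRNA-Ile-GAT-1-1 and tRNA-Ile-TAT-1-1 also passed as higher in both clones. tRNA-Ile-AAT-7-1 (chromosome 6, 26720992 to 26721065) went from 47.1 in wild type to 1398 and 2637, 29.7-fold and 56.0-fold higher, or 4.89 ± 0.49 and 5.81 ± 0.49 in the authors' deposited table (adjusted p = 3.33e-21 and 6.45e-30). tRNA-Ile-AAT-3-1 (chromosome 6, 27275211 to 27275284) went from 754 to 5420 and 15882, and the authors' deposited table gave 2.85 ± 0.61 and 4.40 ± 0.61 (adjusted p = 1.7e-05 and 8.71e-12). Both clones lay above wild type for these 2 tRNAs, clone #2 highest. The neighbouring tRNA-Ile-AAT-9-1 (chromosome 6, 27273960 to 27274033) rose from 43.8 to 201 and 443, by 2.20 ± 0.63 and 3.34 ± 0.63 in the authors' deposited table (adjusted p = 0.00158 and 7.45e-07). tRNA-Ile-AAT-1-1, whose 3′ part is printed above, rose from 9.00 to 57.8 and 71.7, by 2.68 ± 0.75 and 2.99 ± 0.74 in the authors' deposited table (adjusted p = 0.0011 and 0.000217). tRNA-Ile-AAT-8-1, of the same length and alike but for 3 bases over the part compared, stood at 27.3, 30.4 and 43.5 and did not pass, with 0.16 ± 0.64 and 0.67 ± 0.62 in the authors' deposited table.

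Lower in both DUS2L clones was tRNA-Ile-AAT-5-3, at 260, 66.6 and 70.6, with -1.96 ± 0.66 and -1.88 ± 0.66 in the authors' deposited table (adjusted p = 0.00774 and 0.0106), a call that ended in both clones after centring (-0.94 and -1.33). tRNA-Ile-AAT-6-1, at 1403, 653 and 1398, fell in clone #1, with -1.10 ± 0.43 in the authors' deposited table (adjusted p = 0.0222), and centring moved this to -0.08. tRNA-Ile-TAT-1-1, at 662, 1000 and 1717, rose in clone #2, by 1.38 ± 0.56 in the authors' deposited table (adjusted p = 0.0296). tRNA-Ile-TAT-2-1, the main TAT isodecoder, stood at 3347, 2395 and 4570 and did not pass, nor did tRNA-Ile-TAT-3-1 at 69.2, 61.8 and 82.1. tRNA-Ile-GAT-1-1, the one GAT isodecoder and so the whole of its family, rose in clone #2 (adjusted p = 0.0151). tRNA-Ile-AAT-4-1, at 5014, 2502 and 3876, was below wild type in both clones and did not pass. tRNA-Ile-AAT-12-1 was at 1198, 1197 and 1968, and did not pass. No isoleucine isodecoder or family differed between the 2 DUS2L clones, where 1.81% of all isodecoder entries and 1.41% of anticodon entries did, though 2 isodecoders and 1 family had an unadjusted p under 0.05 in that normal test.

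tRNA-Ile-AAT-3-1 held 47% and 60.2% of AAT counts in the DUS2L clones against 8.60% in their wild type, and tRNA-Ile-AAT-7-1 12.1% and 9.99% against 0.538%. A family sum that leaves out tRNA-Ile-AAT-3-1 was added after seeing the data. By it the family changed by -0.39 and 0.39, without a test. The wild type of the DUS3L table also had high shares of both, with 58.9% for tRNA-Ile-AAT-3-1 and 20.4% for tRNA-Ile-AAT-7-1. Among TAT counts tRNA-Ile-TAT-1-1 was 16.2% of TAT counts in the DUS2L wild type, 28.9% and 27.0% in its clones and 28.9% in the wild type of the DUS3L table. High shares of these isodecoders thus also occurred in wild-type cells, and the part that the choice of wild type plays in the DUS2L changes was not tested.

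**Figure D2:**
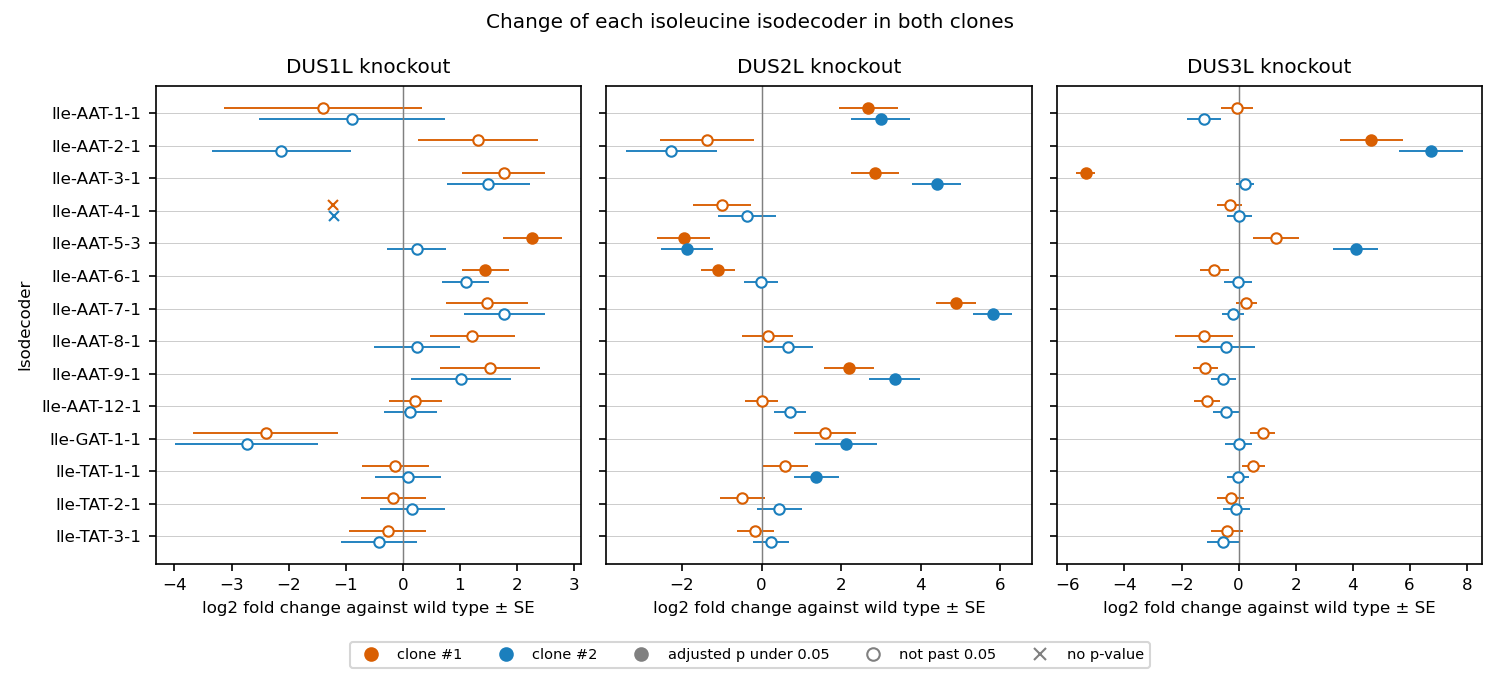
Log2 fold change of each isoleucine isodecoder against the wild type of its table (horizontal axis, bars give the SE) in clone #1 and clone #2, one panel per knockout with its own axis range. Filled points passed at an adjusted p under 0.05, and crosses have no p-value. In the DUS2L panel tRNA-Ile-AAT-7-1 and tRNA-Ile-AAT-3-1 are filled to the right in both clones, and in the DUS3L panel tRNA-Ile-AAT-3-1 is filled at -5.35 in clone #1 and open at 0.21 in clone #2.

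In the DUS3L knockouts the clones parted over tRNA-Ile-AAT-3-1, the leading isoleucine isodecoder of their wild type. Its levels were 1631, 39.8 and 1890, so that clone #1 held 40.9-fold less than wild type and clone #2 lay near it. In the authors' deposited table this was -5.35 ± 0.34 in clone #1 (adjusted p = 3.61e-54) and 0.21 ± 0.31 in clone #2 (adjusted p = 0.795). The clones differed by 5.57 ± 0.34 (adjusted p = 4.35e-58 by a normal test). Of the 14 isodecoders 2 differed between these clones, where 11.7% of all entries did, and of the 3 families 1 did, where 5.41% did.

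The family was lower in clone #1 as well. Ile-AAT, at 2770, 1298 and 3874, changed in clone #1 by -1.09 ± 0.30 in the authors' deposited table (adjusted p = 0.00559) and stood at 0.48 ± 0.30 in clone #2 (adjusted p = 0.476). It was the 1 isoleucine family that passed in clone #1, where 8.11% of anticodon entries did, and none passed in clone #2, where 5.41% did and 0 of the 3 had an unadjusted p under 0.05 by DESeq2. The clones differed by 1.58 ± 0.30 for the family (adjusted p = 1.35e-05 by a normal test). Without tRNA-Ile-AAT-3-1 the AAT counts were 1139, 1258 and 1984, a change of 0.14 and 0.80 without a test. The fall of the family in clone #1 was thus not seen in the sum of its other members. Of these, tRNA-Ile-AAT-2-1 (8.79 to 222), tRNA-Ile-AAT-7-1 (566 to 685) and tRNA-Ile-AAT-5-3 (4.41 to 11) were higher in clone #1. The rest were lower and did not pass, among them tRNA-Ile-AAT-12-1 (153 to 71.3), tRNA-Ile-AAT-6-1 (131 to 73.1) and tRNA-Ile-AAT-9-1 (81.5 to 36.1). In clone #2 most of the higher family level was tRNA-Ile-AAT-2-1, described below, and not tRNA-Ile-AAT-3-1. Isoleucine tRNAs summed to 3594, 2171 and 4657 normalised counts, or 0.761%, 0.235% and 0.499% of nuclear counts. Nuclear counts were 472232, 921836 and 932473, so in clone #2 the share was lower although the isoleucine counts were higher.

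**Figure D3:**
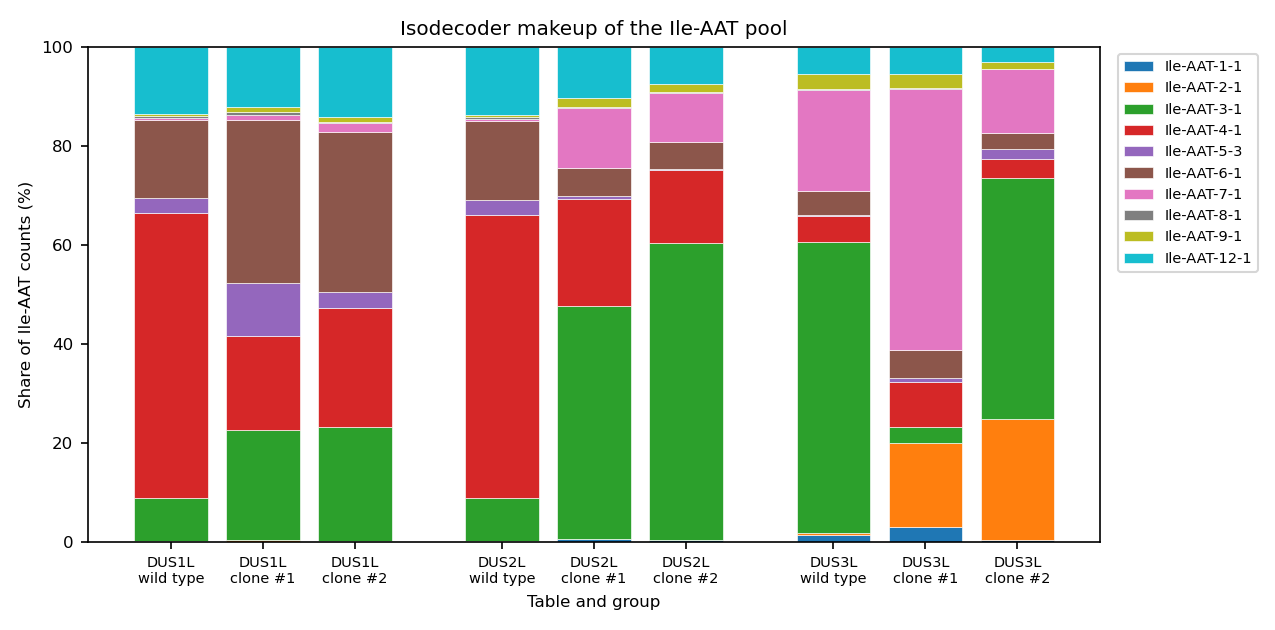
Share of each AAT isodecoder in the Ile-AAT counts (vertical axis, percent) for the 3 groups of each table, as stacked bars. tRNA-Ile-AAT-3-1 makes up 58.9% of the pool in the DUS3L wild type, 3.07% in clone #1 and 48.8% in clone #2, and tRNA-Ile-AAT-4-1 leads in the wild type of the DUS1L and DUS2L tables.

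The gene of tRNA-Ile-AAT-3-1 lies in a dense tRNA cluster. By the gene of the same name, RefSeq places 11 other table entries within 100 kb of the gene of tRNA-Ile-AAT-3-1. An entry can also stand for copies elsewhere, as tRNA-Ile-AAT-5-3 does with genes on chromosomes 14 and 17. Its change is thus not that of this place alone, and copies of the entries for other amino acids were not looked up. In clone #1 none of the 11 passed, with changes from -1.17 to 1.31, where 2.48% of all entries rose and 5.32% fell. The lowest of these was tRNA-Ile-AAT-9-1, at 81.5, 36.1 and 55.9, which did not pass at -1.17 ± 0.44 in the authors' deposited table (adjusted p = 0.0689, and 0.0242 with the spike-ins as reference). In clone #2, 2 of the 11 rose, tRNA-Ile-AAT-5-3 and tRNA-Lys-TTT-6-1, where 10.6% of all entries rose. In the DUS2L table, where tRNA-Ile-AAT-3-1 itself was higher, 10 of these neighbours had a p-value and 3 rose and 3 fell in each clone. Of all entries there, 16.7% rose and 37.3% fell in clone #1, and 21.4% and 30.8% in clone #2. With so few neighbours, these counts do not set the cluster apart from the rest of the table.

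**Figure D4:**
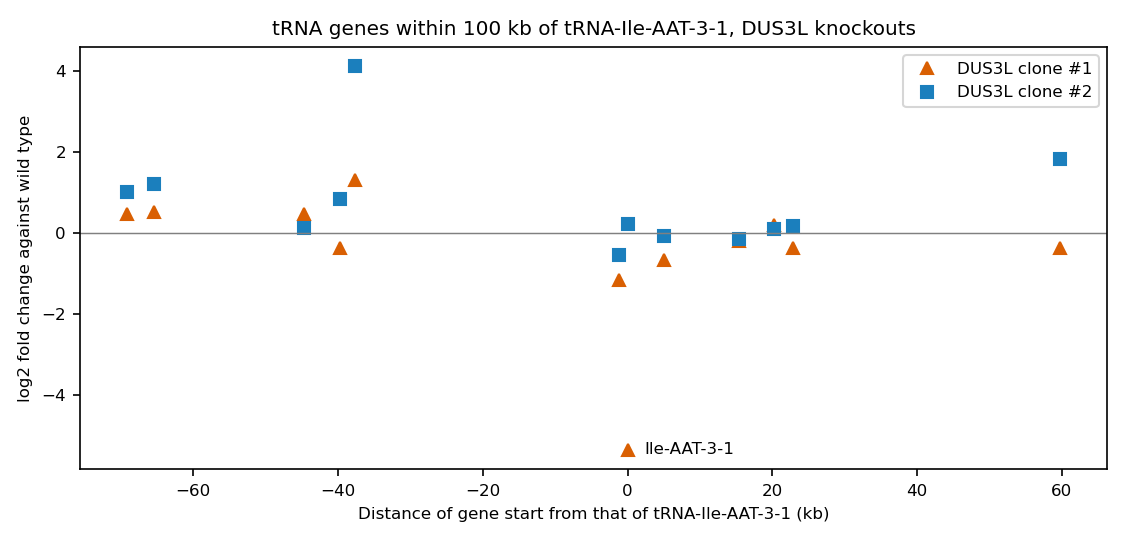
Log2 fold change against wild type (vertical axis) of the tRNA entries whose genes of the same name start within 100 kb of tRNA-Ile-AAT-3-1 (horizontal axis, distance in kb) in DUS3L clone #1 (triangles) and clone #2 (squares). Some entries also stand for copies elsewhere. tRNA-Ile-AAT-3-1 of clone #1 stands alone at -5.35, and the 11 others lie between -1.17 and 1.31 in that clone.

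Of the 14 isodecoders, 1 rose (2.48% of all entries) and 1 fell (5.32%) in DUS3L clone #1, and 2 rose (10.6%) and 0 fell (1.06%) in clone #2, with 1 lower at an unadjusted p under 0.05 by DESeq2. In both clones 1 was higher (2.48% of all entries) and 0 lower (1.06%). The median change of the 14 was -0.30 and -0.05, against 0 and 0.22 over all entries. tRNA-Ile-AAT-2-1 (chromosome 6, 27688188 to 27688261) was the isodecoder higher in both clones. It rose from 8.79 in wild type to 222 and 941, by 4.66 ± 1.12 and 6.74 ± 1.12 in the authors' deposited table (adjusted p = 0.0012 and 7.13e-08). It then held 17.1% and 24.3% of AAT counts against 0.317% in wild type. In the DUS1L and DUS2L tables the same tRNA was near the lower limit of the libraries, between 1.13 and 12.4 in every group. Its DUS3L wild-type level of 8.79 lay in that range, so both of its DUS3L changes start from few counts. tRNA-Ile-AAT-5-3, at 4.41, 11 and 76.3, rose in clone #2, with 1.31 ± 0.82 and 4.11 ± 0.79 in the authors' deposited table (adjusted p = 0.368 and 5.43e-06), and clone #2 lay above clone #1 by 2.80 ± 0.73 (adjusted p = 0.00185 by a normal test).

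tRNA-Ile-AAT-7-1, so different between groups of the DUS2L table, stood at 566, 685 and 495 here and did not pass, and it made up 52.7% of AAT counts in clone #1. Ile-TAT was at 757, 753 and 716, the 3 groups close together, with changes of -0.01 ± 0.39 and -0.08 ± 0.39 in the authors' deposited table. Ile-GAT was at 67.0, 120 and 67.0, with 0.84 ± 0.39 in clone #1 in the authors' deposited table (adjusted p = 0.176). The remaining AAT isodecoders did not pass in either clone: tRNA-Ile-AAT-1-1 stood at 38.5, 37.5 and 16.5, tRNA-Ile-AAT-4-1 at 148, 119 and 151, tRNA-Ile-AAT-6-1 at 131, 73.1 and 129, and tRNA-Ile-AAT-8-1 at 8.00, 3.44 and 5.83. tRNA-Ile-AAT-12-1, at 153, 71.3 and 114, lay below wild type in both, at -1.10 ± 0.46 in clone #1 in the authors' deposited table (adjusted p = 0.124). Of the TAT isodecoders, tRNA-Ile-TAT-1-1 stood at 219, 313 and 215, tRNA-Ile-TAT-2-1 at 503, 414 and 477, and tRNA-Ile-TAT-3-1 at 35.2, 26.4 and 24.0.

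Clone differences in the DUS1L table were found for 2 of 13 isodecoders, where 14.5% of all entries differed, and for no family (0 with an unadjusted p under 0.05), where 2.86% did. tRNA-Ile-AAT-5-3 was lower in clone #2 than in clone #1, at a log2 difference of -2.03 ± 0.51 (adjusted p = 0.0023 by a normal test). The other was tRNA-Ile-AAT-2-1, at 4.95, 12.4 and 1.13 a tRNA of few counts, lower in clone #2, at -3.45 ± 1.22 (adjusted p = 0.0391 by a normal test). tRNA-Ile-AAT-5-3 thus passed in 4 of 6 clones, higher in DUS1L clone #1 and DUS3L clone #2 and lower in both DUS2L clones. Both DUS2L calls ended after centring, and the DUS3L rise started from a wild-type level of 4.41.

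Other families that start their anticodon with A, and so are read after deamination to inosine, were set beside Ile-AAT. Of 7 such families (for alanine, arginine, leucine, proline, serine, threonine and valine), 6 had a p-value in the DUS2L table. None rose and 3 fell in each clone, with medians of -1.44 and -0.63 against -0.91 and -0.45 over all entries. Of all anticodon entries in that table, 35.2% passed in clone #1 and 42.3% in clone #2, in either direction. The proline family Pro-AGG was lower in both clones, with -2.03 ± 0.57 and -2.08 ± 0.57 in the authors' deposited table (adjusted p = 0.0029 and 0.0015), while Val-AAC was the one of the 7 above wild type in both. The authors' deposited table gave Val-AAC 0.52 ± 0.58 and 1.09 ± 0.58, and it did not pass. In each DUS1L clone 6 of the 7 had a p-value and 0 passed, where 5.71% and 0% of all anticodon entries did. All 7 had a p-value in the DUS3L clones, where 1 fell in clone #1 (8.11% of all anticodon entries passed) and 0 passed in clone #2 (5.41%). Families whose genes carry an intron, as those of Ile-TAT do, moved apart in the DUS2L table, where Tyr-GTA rose in both clones and Arg-TCT and Leu-CAA fell in both. Of these 3 families 1 rose in DUS1L clone #1 and none passed in DUS1L clone #2 or in the DUS3L clones. The shares of all anticodon entries given above are the background for these 3 families as well.

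By the mean absolute difference of log2 fold change over the 6 clones, the 3 families nearest to Ile-AAT among 44 nuclear families with a mean of at least 100 in each table were iMet-CAT (0.33), Gln-TTG (0.47) and Val-AAC (0.52). Nearest to Ile-TAT were Val-CAC (0.26), Asp-GTC (0.37) and iMet-CAT (0.41). The families nearest to Ile-GAT, here among 45, were Tyr-GTA (1.19), Gly-GCC (1.21) and Gly-TCC (1.32), at larger distances. Ile-GAT itself had a mean under 100 in the DUS1L (13.7) and DUS3L (84.7) tables. Its imprecise DUS1L changes of -2.42 ± 1.49 and -2.76 ± 1.47, which did not pass, enter these distances. Since the DUS1L and DUS2L tables may share their wild-type libraries, their changes are not taken as independent.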

How the data were processed

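tRNA was gel-isolated from total RNA and made into small RNA libraries, per the labels' protocols. Per the submitters' processing notes the build was hg38 and the tools were STAR, fastp, DESeq2 and featureCounts, with no versions or roles. The authors' deposited tables held, per the file headers, the mean signal in normalised counts, and for each clone its log2 fold change and unadjusted p-value relative to wild type. From these, with scipy 1.17.1, pandas 2.3.3, numpy 2.4.6 and biopython 1.88 in Python 3.11.15 (plots with matplotlib 3.10.9), p-values were adjusted over every entry with a p-value in a column. An SE is the size of a log2 fold change divided by the normal quantile that its p-value corresponds to. Group levels follow from the mean and the fold changes if each of the 3 groups had 3 libraries. The difference between clones used an SE from the recovered dispersion that leaves out the shared wild type (two-sided normal test, adjusted over the table). The calculations were tested on simulated tables. Every isoleucine family and isodecoder was accounted for, and those with a mean of at least 10 in any table could be named with values. The lists of other families, and the alternatives (a stricter p, a minimum fold, minimum means, centring, spike-ins), and the tRNAs described, were chosen with earlier results of these data known. The sequences are RefSeq's, and overlapping genes are GENCODE's.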

Additional observations from a re-analysis of the deposited data

Results flagged for a closer look

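The following isoleucine tRNAs were singled out because the 2 clones of the same knockout differed by the normal test at an adjusted p under 0.05. In the DUS3L knockouts tRNA-Ile-AAT-3-1 differed by 5.57 on the log2 scale (clone #2 higher), the family Ile-AAT by 1.58 and tRNA-Ile-AAT-5-3 by 2.80. In the DUS1L knockouts tRNA-Ile-AAT-5-3 differed by -2.03 and tRNA-Ile-AAT-2-1 by -3.45 (clone #2 lower). When the SE also carried the wild-type part, as the root of the summed squared SEs, tRNA-Ile-AAT-3-1 (adjusted p = 4.91e-31) and Ile-AAT in the DUS3L table (adjusted p = 0.0166) still passed by the normal test. tRNA-Ile-AAT-5-3 then did not pass in the DUS3L table (adjusted p = 0.186) or the DUS1L table (adjusted p = 0.16), nor did tRNA-Ile-AAT-2-1 in the DUS1L table (adjusted p = 0.316).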

How the results depend on the processing

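No paired analysis was possible because the tables hold no values per library, and leaving out each replicate was not run for the same reason. The number of isoleucine isodecoders that passed in DUS1L clone #2, 0 as reported, was 1 with a mean of at least 100 and 2 after centring on the median nuclear tRNA. For DUS2L families it went from 0 to 2 in clone #1 after centring and from 2 to 0 in clone #2 at an adjusted p under 0.01, where DUS2L isodecoders in clone #2 went from 7 to 4. In DUS3L clone #2 the isodecoders went from 2 to 1 with a mean of at least 100. Differences between clones went from 2 isodecoders in the DUS1L table to 1 at an adjusted p under 0.01 or with a mean of at least 10 or 100, and to 0 with an SE that also carries the wild-type part. For DUS3L isodecoders they went from 2 to 1 with that SE or a mean of at least 100. Ile-AAT in DUS3L clone #1 turned from -1.09 to 0.14 without tRNA-Ile-AAT-3-1, in a sum where tRNA-Ile-AAT-2-1 was higher and several other members were lower. The other 102 values of counts and shares kept within 1.5 times or within the spread. Entries of few counts, such as tRNA-Ile-AAT-1-1 and tRNA-Ile-AAT-2-1 in the DUS1L table, had SEs above 1 and could show only large changes.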
